A study of Mus musculus with 6 samples.

Results

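This report describes 7 genes of intestinal iron transport and storage in mouse small-intestinal organoids exposed to low-density lipoprotein (LDL): Cybrd1, Slc11a2, Tfrc, Slc40a1, Heph, Fth1 and Ftl1. They were picked by symbol, and each Ensembl identifier in the gene table was translated to its symbol with the GENCODE mouse annotation. All 7 were found among the 55416 genes of the table and all 7 passed the filter on low values, a mean of at least 10 normalized counts, which 18459 genes passed. The organoids were grown from crypts of the duodenum and jejunum of C57BL/6 mice with the genotype label WT. The LDL group received 50 µg/ml LDL for 5 days and the PBS group received phosphate-buffered saline as vehicle. Each group held 3 libraries of total RNA depleted of ribosomal RNA, and libraries of the 2 groups that share a replicate number carry the same animal identifier, so each number stands for 1 mouse. An organoid of this kind holds epithelium only, without blood supply, immune cells or the liver hormone hepcidin that a living gut receives.

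Dietary iron reaches the duodenal enterocyte mostly in the ferric form. Cybrd1 (duodenal cytochrome b) reduces it at the brush border, Slc11a2 (the divalent metal transporter DMT1) carries the ferrous ion into the cell, ferritin, built of Fth1 and Ftl1 chains, stores it, and ferroportin (Slc40a1) exports it across the basolateral membrane while hephaestin (Heph) oxidizes it again for loading onto transferrin. Tfrc, the transferrin receptor, takes up iron from the circulation side and is high in dividing cells such as those of the crypt. When iron is scarce, the iron regulatory proteins (encoded by Aco1 and Ireb2) bind hairpins called iron-responsive elements, which blocks translation where the hairpin lies in the 5′ untranslated region (UTR) and protects the transcript where it lies in the 3′ UTR. Hypoxia-inducible factors, the one encoded by Epas1 above all, raise transcription of Cybrd1, Slc11a2 and Slc40a1 in the gut.

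The hairpins are shown because they divide these genes by how iron is known to act on them, which an RNA count sees only in part: for a 5′ element the count precedes the step that is controlled. The transcripts of the GENCODE annotation (build GRCm39) were searched on the sense strand for a C, 5 bases, the loop CAGTGN and 5 bases that pair with the first 5, G-T pairs allowed, or the same with 1 unpaired base in the second arm. Each printed stretch is 29 bases of 5′ to 3′ transcript sequence with the loop in capitals.
Fth1 5′ UTR, chr19:9960096-9960124, plus strand: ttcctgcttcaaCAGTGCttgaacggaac
Ftl1 5′ UTR, chr7:45109203-45109231, minus strand: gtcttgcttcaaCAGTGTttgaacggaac
Slc40a1 5′ UTR, chr1:45964625-45964653, minus strand: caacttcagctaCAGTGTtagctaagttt
Slc11a2 3′ UTR, chr15:100293034-100293062, minus strand: agccatcagagcCAGTGTgtttctatggt
Tfrc 3′ UTR, chr16:32450037-32450065, plus strand: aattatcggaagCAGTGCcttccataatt
Tfrc 3′ UTR, chr16:32450416-32450444, plus strand: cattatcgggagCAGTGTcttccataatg
Tfrc 3′ UTR, chr16:32450481-32450509, plus strand: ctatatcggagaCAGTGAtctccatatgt
Tfrc 3′ UTR, chr16:32450528-32450556, plus strand: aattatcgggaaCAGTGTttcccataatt
Only the Slc11a2 hairpin needed the unpaired base. The Slc40a1 element was present in 5 of 9 coding transcripts and the Slc11a2 element in 9 of 21, against 17 of 18 for Fth1, 6 of 7 for Ftl1 and 10 of 12 for Tfrc. Counts per gene do not separate those transcripts. No hairpin of this form lay in the UTRs of Cybrd1 or Heph. Over all 21642 protein-coding genes, whose UTRs differ in length, the form without the unpaired base was found in a 5′ UTR of 0.217% and in a 3′ UTR of 0.753%, and with either form the shares were 0.610% and 2.32%.

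The libraries held 22061545 to 31073360 reads on genes, so the least covered of the 7, Slc40a1, rested on 71 to 575 reads a library. Ribosomal Rn18s-rs5 took 7.62% of the reads in LDL replicate 1 and 3.02% in PBS replicate 2, and at most 0.225% in the other 4. The animal identifier of mouse 3 follows another pattern than those of mice 1 and 2 although all carry the genotype label WT, so the results below were also computed without mouse 3. The epithelial markers Epcam and Cdh1 stood at 20049 to 24334 and 16162 to 27705 normalized counts, as the labelled tissue would carry, and the macrophage markers Ptprc and Adgre1 reached at most 12.2 and 6.10. Other macrophage markers that passed the filter are given with Slc40a1.

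Levels between genes were compared per kilobase of the canonical GENCODE transcript, after the counts had been scaled by library. In the PBS organoids the order ran from Fth1 (11242 ± 1154 normalized counts per kb, SD, n = 3) over Ftl1 (2928 ± 418), Tfrc (2191 ± 305), Slc11a2 (536 ± 209), Heph (234 ± 16.1) and Cybrd1 (33.7 ± 13.2) to Slc40a1 (27.8 ± 8.23). The library ranges of neighbours in this order did not overlap, except those of Cybrd1 and Slc40a1. PBS organoids carried storage and transferrin-receptor transcripts well above those of the reductase and the exporter. With LDL the order of the means was unchanged, from Fth1 at 13234 ± 1845 to Cybrd1 at 164 ± 66.7 and Slc40a1 at 110 ± 30.4. The ranges of Ftl1 and Tfrc, of Slc11a2 and Heph, and of Cybrd1 and Slc40a1 then overlapped. The Ftl1 level depends on how reads shared with its copies were counted, as described with the ferritins.

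**Figure D1:**
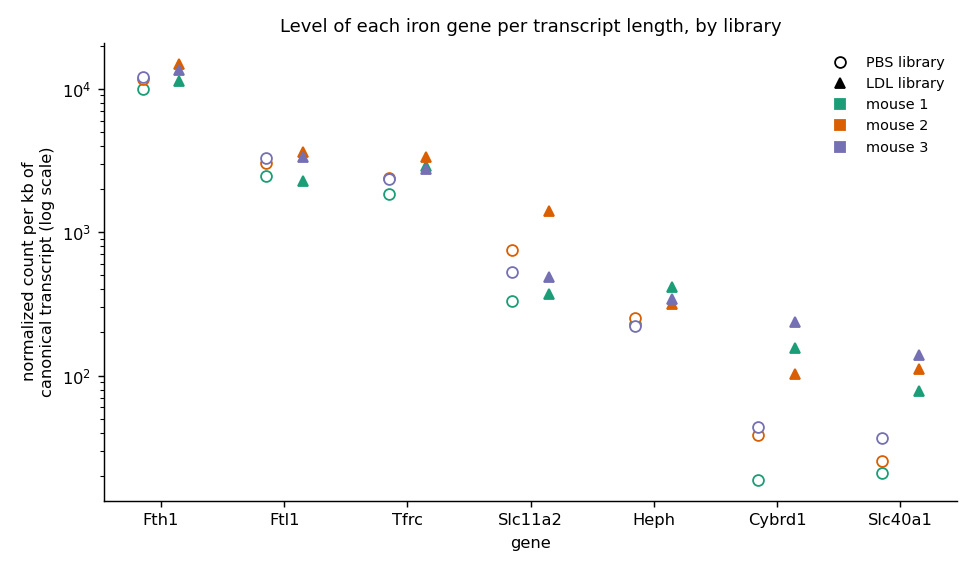
Normalized count per kilobase of canonical transcript (log scale) for each of the 7 genes in each of the 6 libraries, ordered by the PBS mean; open circles are PBS libraries, filled triangles LDL libraries, and colours the 3 mice. Fth1 lies near 10000 in every library, and Cybrd1 and Slc40a1, lowest in PBS, show the widest gap between circles and triangles.

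The comparison asked whether LDL changed the transcripts of iron handling in organoids of the same mice. The reductase Cybrd1 and the exporter Slc40a1 rose, by 2.29 and 1.97 on the log2 scale. Heph, which works beside the exporter, passed the test with the mouse as a block and not without it, the importer Slc11a2 and both ferritin chains did not pass the test, and Tfrc passed it with the mouse as a block but by less than 1.5-fold. A gene was called when its adjusted p was under 0.05 (limma on log2 of the normalized count plus 1, Benjamini-Hochberg over the 18459 genes) and its change above 1.5-fold. By this rule 2 of the 7 genes were higher and none lower, beside 0.878% of all genes tested higher and 0.395% lower. With the mouse as a block 3 of the 7 were higher and none lower, beside 5.68% and 3.46% of all genes. None of the 7 was lower at an unadjusted p under 0.05 either, and edgeR and DESeq2 called none lower. In 4 of the 7 (Cybrd1, Slc40a1, Heph and Tfrc) every LDL library lay above every PBS library, which held for 11.9% of all genes, while 12.3% lay wholly below. The median change of the 7 was 0.46 (log2), against -0.02 over all genes tested. In bulk RNA, more cells that express a gene and more transcript per cell cannot be told apart.

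**Figure D2:**
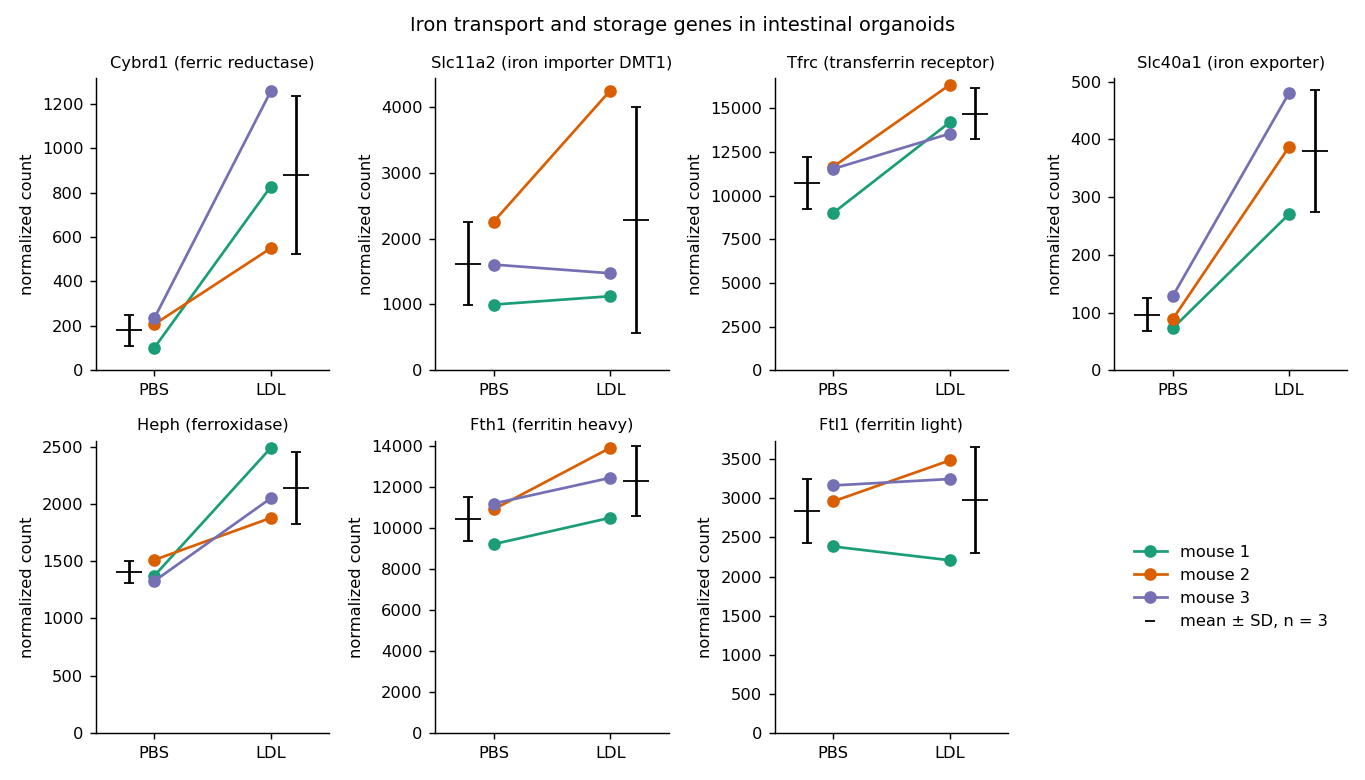
Normalized count of each gene in the PBS and LDL library of each mouse (linear axes from 0); lines join the libraries of 1 mouse, and black bars beside them give the mean ± SD, n = 3. The lines of Cybrd1, Slc40a1, Heph, Tfrc and Fth1 climb in all 3 mice, whereas those of Slc11a2 and Ftl1 climb in 2 of 3.

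Cybrd1 (chr2:70948267-70973270, plus strand) stood at 100, 206 and 233 normalized counts in the PBS libraries of mice 1, 2 and 3 and at 827, 549 and 1256 in their LDL libraries. The lowest LDL library was more than 2 times the highest PBS library, and the rise was uneven, 8.27-fold in mouse 1, 2.66-fold in mouse 2 and 5.39-fold in mouse 3. The log2 fold change was 2.29 (SE 0.38, limma adjusted p = 0.0353, with the mouse as a block 0.00158). PBS organoids of different mice also differed in it: the highest PBS library was 2.31 times the lowest, against 2.26 for Slc11a2, 1.75 for Slc40a1, 1.14 to 1.33 for the rest of the 7 and a median of 1.24 over all genes tested. Leaving out any 1 library other than LDL replicate 2 took the adjusted p above 0.05 in the fit without block, to between 0.0777 and 0.178. Without mouse 3 it was 0.509, and 0.0485 with the block.

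Slc11a2 (chr15:100285776-100322953, minus strand) moved with the mouse more than with the treatment. Its PBS libraries stood at 998, 2260 and 1607 normalized counts and its LDL libraries at 1126, 4255 and 1475. Mouse 2 was highest in both groups, the groups overlapped, and LDL over PBS was 1.13, 1.88 and 0.918 in the 3 mice. The log2 fold change was 0.32 with a 95% interval of -0.81 to 1.46 (limma adjusted p = 0.773, with the block 0.258), and it was -0.25 without LDL replicate 2. Of the enterocyte brush-border enzymes, Sis (sucrase-isomaltase) and Anpep (aminopeptidase N) were also highest in mouse 2. Sis stood at 19016 and 17861 normalized counts in its PBS and LDL libraries against 6372 to 8006 in the others, and Anpep at 14700 and 12578 against 4532 to 7652. Alpi (alkaline phosphatase) was highest in mouse 2 in PBS but in mouse 3 with LDL. The part of these differences between mice in the Slc11a2 values was not tested. The annotation places the long non-coding gene Gm5475 on the opposite strand, sharing 927 exonic bases with Slc11a2. Gm5475 stood at 14.3, 55.9 and 41.5 in PBS and 19.5, 134 and 51.8 in LDL, and whether the authors counted by strand is not given in the sources used here.

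Tfrc (chr16:32427556-32451612, plus strand) was the most abundant of the transport genes, with 9000, 11647 and 11526 normalized counts in PBS and 14196, 16342 and 13547 in LDL. The groups did not overlap, and the LDL library was higher in every mouse, by 1.58, 1.40 and 1.18 times. The log2 fold change was 0.46 (95% interval 0.15 to 0.77, limma adjusted p = 0.128), and with the mouse as a block the adjusted p was 0.0223, below the threshold but at less than 1.5-fold. Of the proliferation genes, with which transferrin receptor levels are known to go, 0 of 6 were called with or without the block, Mki67 stood at 38555 ± 1821 in PBS and 36972 ± 3299 in LDL (SD, n = 3), and 1 of 6 (Mcm2) passed an unadjusted p of 0.05, as did 19.7% of all genes tested.

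Slc40a1 (chr1:45947211-45965683, minus strand), encoding the only known cellular iron exporter of mammals, stood at 72.5, 88.2 and 128 normalized counts in PBS and at 271, 387 and 481 in LDL. Every LDL library was above every PBS library by more than 2 times, and the rise was close to equal in the 3 mice, 3.74-fold, 4.39-fold and 3.76-fold. Both groups kept the same order of mice, with mouse 1 lowest and mouse 3 highest. The log2 fold change was 1.97 (SE 0.27, limma adjusted p = 0.0201, with the block 0.000128). In the fit without block the adjusted p rose to 0.116, 0.102 and 0.0886 without LDL replicate 3, PBS replicate 1 and PBS replicate 2. Without mouse 3 it was 0.345, and 0.0113 with the block.

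Slc40a1 is also a gene of iron-recycling macrophages. Of the 5 macrophage markers listed, Ptprc and Adgre1 were below the filter in these libraries, as given above. Cd68, Lyz2 and Csf1r passed it, at means of 143, 102 and 19.5 normalized counts over the 6 libraries, beside 238 for Slc40a1. The log2 fold changes of these 3 markers were 0.17, -0.31 and 0.18, and 0 of them were called. The summed level of the 5 markers was 229 to 294 normalized counts in the LDL libraries and 225 to 297 in the PBS libraries. The part of such cells in the Slc40a1 values was not tested.

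Heph (chrX:95498965-95621010, plus strand) stood at 1371, 1510 and 1325 normalized counts in PBS and 2488, 1877 and 2049 in LDL, so the groups did not overlap. The ratios within mice were 1.81, 1.24 and 1.55. The log2 fold change was 0.60 (SE 0.12), with a limma adjusted p of 0.0614 without block and 0.0097 with it, and the adjusted p with the block was 0.154 without mouse 3. Its smallest ratio fell in mouse 2, as did that of Cybrd1, whereas the ratio of Slc40a1 was largest in that mouse. Ceruloplasmin (Cp), the plasma relative of hephaestin, stood at 28.2 to 62.2 normalized counts over all libraries with overlapping groups, and Hephl1 at most at 4.88.

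The ferritin chains differed little between the groups. Fth1 (chr19:9957911-9962462, plus strand), the chain with ferroxidase activity, stood at 9217, 10917 and 11199 normalized counts in PBS and 10505, 13921 and 12456 in LDL. It was higher with LDL in all 3 mice, by 1.14, 1.28 and 1.11 times, with overlapping groups and a log2 fold change of 0.23 (95% interval -0.08 to 0.54, limma adjusted p = 0.397, with the block 0.115). Ftl1 (chr7:45107367-45109308, minus strand), the light chain, stood at 2385, 2961 and 3165 in PBS and 2209, 3486 and 3248 in LDL. Its log2 fold change was 0.05 (95% interval -0.38 to 0.49, limma adjusted p = 0.910, with the block 0.730), and its sign turned when LDL replicate 2, LDL replicate 3 or PBS replicate 1 was left out. These intervals leave room for a change of Fth1 of up to 0.54 on the log2 scale, below the interval of Slc40a1, which began at 1.34, and that of Cybrd1, which began at 1.41.

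Ftl1 has near-identical copies elsewhere in the genome, and its count is uncertain for that reason. The processed pseudogene Ftl2-ps, 98.7% identical over 552 aligned bases, stood at a mean of 3029 normalized counts over the 6 libraries, Gm15590 (99.1%) at 2960 and Ftl1-ps1 (99.6% over 910 bases) at 1703, beside 2909 for Ftl1 itself. How reads that align to several of these loci were counted is not given in the sources used here. The copies followed Ftl1 from library to library, with log2 fold changes of 0.09, 0.09 and -0.00026. With the reads of all 10 such copies that do not overlap the gene added, the log2 fold change of Ftl1 was 0.06, with -0.10, 0.30 and -0.001 in the 3 mice. Fth1 had 1 copy found in this way outside its own locus, the pseudogene Fth1-ps at a mean of 16.5, and adding the named Fth1 pseudogenes left its log2 fold change at 0.23.

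**Figure D3:**
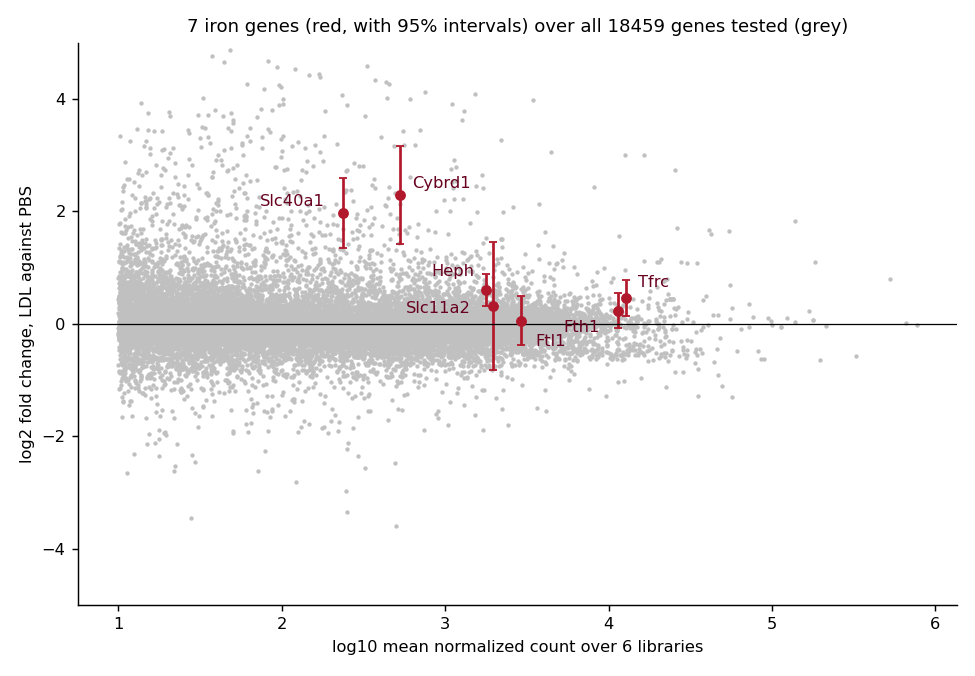
Log2 fold change, LDL against PBS, on the log2(count + 1) scale, against the log10 mean normalized count for the 18459 genes tested (grey; 5 lie outside the vertical range) and the 7 iron genes (red, with 95% limma intervals). Cybrd1 and Slc40a1 lie above the bulk of genes of their level, while Fth1, Ftl1 and Slc11a2 have intervals that cross 0.

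A further 66 genes of iron and heme handling were listed, of which 56 passed the filter on low values. Of these, 2 were called higher and 1 lower, beside 0.878% and 0.395% of all genes tested. With the mouse as a block 3 were higher and 1 lower, not above the 5.68% and 3.46% of all genes. The median log2 fold change of the 56 genes was -0.09, against -0.02 over all genes tested. The called genes were Hmox1, Egln3 and Slc39a8, with Flvcr2 added by the block. In the fit without block many of these calls were lost with single libraries left out, while the log2 fold changes kept their sign. The changes ran from 1.77 to 2.36 for Hmox1, from -1.34 to -0.94 for Slc39a8 and from 1.54 to 1.92 for Egln3. Hmox1 and Slc39a8 stayed called in 1 of 6 such fits and Egln3 in 3 of 6, with adjusted p-values up to 0.157, 0.228 and 0.0974. Without mouse 3 and with the block they were 0.0434, 0.0404 and 0.0096. Transferrin, listed as Tf and therefore outside these counts, has the mouse symbol Trf. Trf stood at 41.9, 73.3 and 40.7 normalized counts in PBS and 26.8, 35.5 and 20.1 in LDL, a log2 fold change of -0.88 (SE 0.33, limma adjusted p = 0.193, with the block 0.0371, called lower with the block). The hepcidin genes Hamp and Hamp2 had at most 4.97 normalized counts in any library.

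Heme oxygenase Hmox1, which frees iron from heme, stood at 47.0, 44.7 and 56.2 normalized counts in PBS and 238, 121 and 274 in LDL. Its groups did not overlap and its rise was smallest in mouse 2, as for Cybrd1, with a log2 fold change of 2.00 (SE 0.31, limma adjusted p = 0.0288, with the block 0.0012). Flvcr2, a transporter of the heme exporter family, rose by 0.62 with the block (adjusted p = 0.0444, without it 0.110). Of the other genes of heme uptake, breakdown and export none was called: Flvcr1 stood at 0.31 and Abcg2 at -0.10 on the log2 scale.

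Slc39a8 (ZIP8), a zinc, manganese and iron importer, was the 1 listed gene called lower. It stood at 1838, 2199 and 1868 normalized counts in PBS and 723, 1267 and 827 in LDL, a log2 fold change of -1.10 (SE 0.20, limma adjusted p = 0.0474, with the block 0.000915). Its relative Slc39a14 (ZIP14) had a log2 fold change of 0.26 and an adjusted p of 0.498. Of the endosomal and surface reductases, Steap3 and Steap1 lay lower in every LDL library (-0.49 and -0.44) without passing the test, and Steap2, the most abundant, differed by -0.07.

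Of the 9 listed genes with a regulator role, Egln3 was the only 1 called. The genes that sense iron inside the cell showed no called change. Aco1 stood at 3755, 4624 and 3867 normalized counts in PBS and 2766, 4268 and 3045 in LDL, lower in all 3 mice with overlapping groups and a log2 fold change of -0.30 (95% interval -0.69 to 0.09, limma adjusted p = 0.377, with the block 0.0532). Ireb2 differed by 0.03, Fbxl5, which targets Ireb2 protein for degradation when iron is plentiful, by 0.01, and Ncoa4, the receptor that delivers ferritin to lysosomes, by 0.10. Arnt, Egln1 and Egln2, which act with the hypoxia-inducible factors, differed by -0.13, 0.00 and -0.21, and every LDL library lay below every PBS library for Egln2. Egln3, of the same family, was called higher at 1.72 and is given below with the hypoxia-inducible genes. The iron chaperones Pcbp1 and Pcbp2 differed by 0.14 and -0.02. The measured counts do not report the activity of these proteins, which iron controls after translation.

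None of the 24 genes of mitochondrial iron, iron-sulfur clusters and heme synthesis was called, and 19 of them (79.2%) had a lower mean with LDL, beside 52.4% of all genes tested. Cpox, a heme synthesis enzyme and one of the most abundant, differed by 0.02. Alas1, which makes the first committed step of heme synthesis in cells other than erythroid ones, stood at 2280 to 2703 normalized counts in PBS and 2843 to 3109 in LDL without overlap, with a log2 fold change of 0.29 and an adjusted p of 0.0356 only with the block. In the group of systemic iron sensing 4 of 9 genes could be tested and none was called, with Neo1 at -0.15, B2m at -0.23, Hfe at 0.39 and Bmp6 at 0.41 and a median of 0.12. Every LDL library lay above every PBS library for Hfe and below for Neo1.

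**Figure D4:**
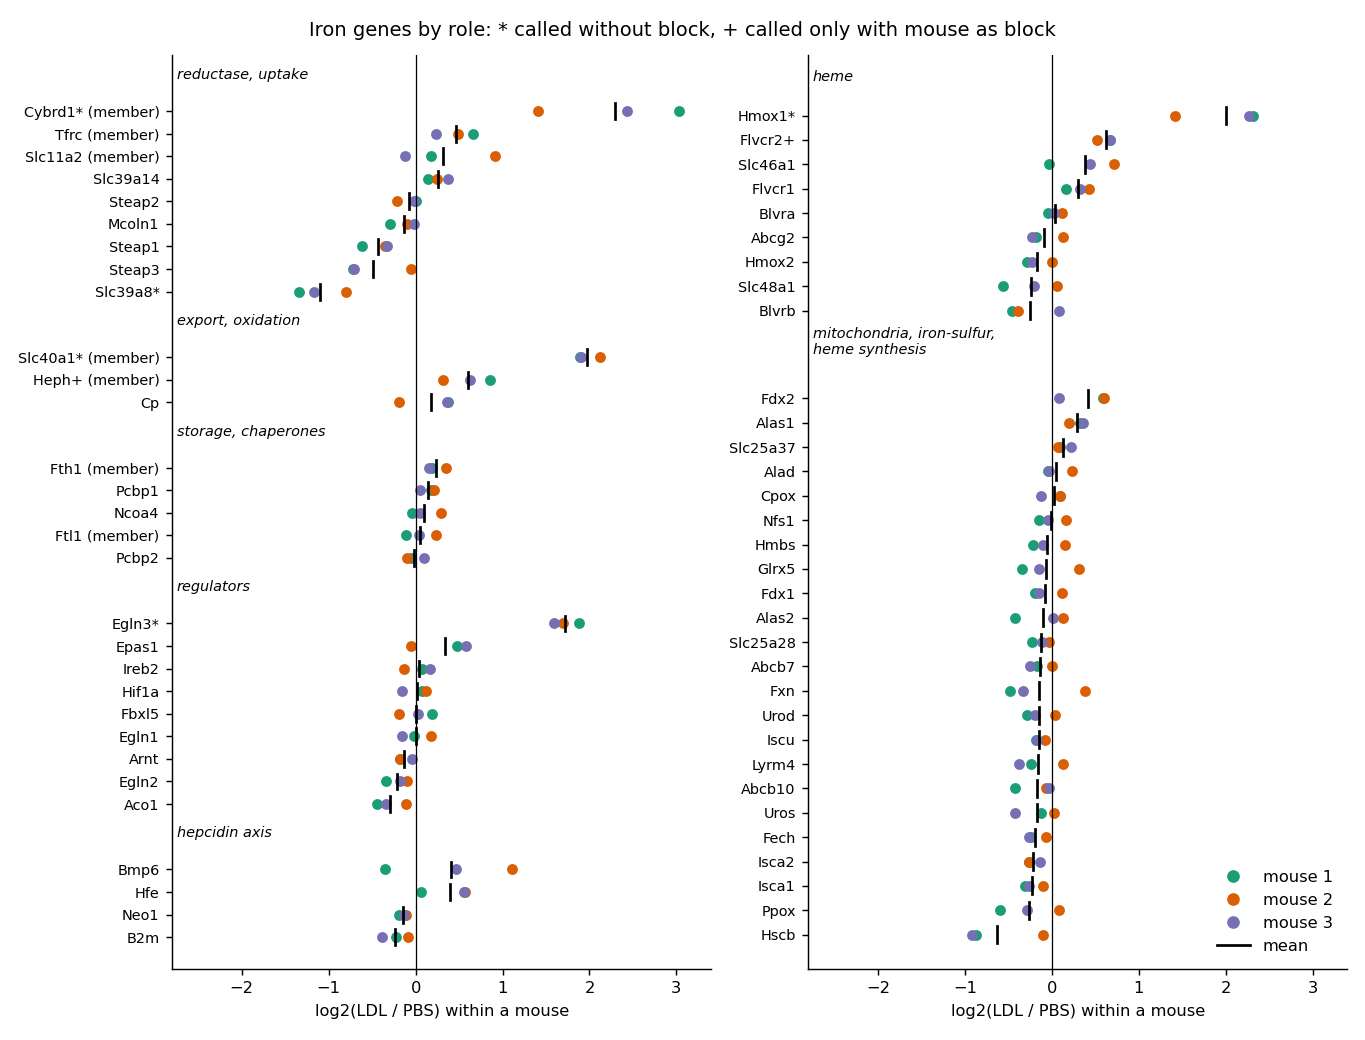
Log2 ratio of LDL to PBS (each count plus 1) within each mouse (coloured points) and their mean (black bars) for the 7 genes and the other iron genes tested, apart from 1 that is not shown, ordered by role and then by mean. Cybrd1, Slc40a1, Egln3 and Hmox1 lie beyond 1.4 in all 3 mice, Slc39a8 lies below 0 in all 3, and most mitochondrial genes lie within 0.5 of 0.

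Because Cybrd1, Slc11a2 and Slc40a1 are known targets of hypoxia-inducible factors, a list of 9 hypoxia-inducible genes was set beside them. Of the factor genes themselves, Hif1a differed by 0.01 and Epas1 by 0.34 on the log2 scale, and neither was called. The 95% limma interval of Epas1 was -0.14 to 0.81 (adjusted p = 0.417), and with the block 0.02 to 0.65 (adjusted p = 0.141). Epas1 was higher in mice 1 and 3 and lower in mouse 2. Of the list, 2 genes were called higher (Egln3 and Slc2a1) and none lower, beside 0.878% and 0.395% of all genes tested. With the block 4 were called higher (also Adm and Pfkfb3) and none lower, beside 5.68% and 3.46% of all genes. Egln3 was also counted in the iron list. Egln3, a prolyl hydroxylase, stood at 133, 205 and 140 normalized counts in PBS and 489, 666 and 426 in LDL, a log2 fold change of 1.72 (SE 0.22, limma adjusted p = 0.0175, with the block 0.000131). Slc2a1, the glucose transporter GLUT1, stood at 725 to 806 in PBS and 1143 to 1559 in LDL, a log2 fold change of 0.88 (adjusted p = 0.0269), and it stayed called in 1 of 6 fits with a library left out, with an adjusted p up to 0.169. Without mouse 3 its adjusted p was 0.0914 with the block. The mean was higher with LDL in 8 of the 9 genes, beside 47.6% of all genes tested. In 5 of the 9 every LDL library lay above every PBS library, which held for 11.9% of all genes. These 9 genes had a median change of 0.61 (log2), against -0.02 over all genes tested. Car9 was among those 5, at 848 to 872 normalized counts in PBS and 983 to 1490 in LDL (0.41 on the log2 scale, not called), and Ndrg1 (0.61), Ankrd37 (0.42) and Bnip3 (0.12) overlapped between the groups and were not called. The exception was Vegfa, with a log2 fold change of -0.49 and every LDL library below every PBS library (adjusted p = 0.138, with the block 0.0335). The part of hypoxia signalling in the iron genes was not tested.

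Cybrd1, Slc11a2, Slc40a1 and Heph are genes of villus enterocytes, so the cell type markers were read beside them. Of 8 enterocyte markers 1 was called higher, the brush-border alkaline phosphatase Alpi, which stood at 1028, 1721 and 1426 normalized counts in PBS and 4623, 6310 and 7268 in LDL (log2 fold change 2.13, limma adjusted p = 0.0083, and 0.0613 without LDL replicate 3). With the block Apoa4 was higher as well (1.18) and Lct, lactase, lower (-1.80, adjusted p = 0.00092). Lct, Anpep, Slc5a1 and Sis were lower with LDL in all 3 mice, Anpep and Slc5a1 by -0.41 and -0.35 with block adjusted p-values of 0.0203 and 0.0204 at less than 1.5-fold, and Sis by -0.20 (with the block 0.160). The 8 markers summed to 30787, 57094 and 30517 normalized counts in the PBS libraries of mice 1, 2 and 3. In the LDL libraries of these mice the sums were 31998, 59271 and 35556, higher in each mouse. Alpi alone rose by more normalized counts than this sum did in each mouse. The sum of the other enterocyte markers was therefore lower with LDL in each mouse. Of the 3 goblet markers Spink4 was called lower (-0.995, adjusted p = 0.0164), and with the block Tff3 too. The Spink4 call was lost without LDL replicate 3 or any 1 of the PBS libraries, with adjusted p-values up to 0.111.

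No stem, Paneth, enteroendocrine, proliferation or general epithelial marker was called without the block. With it, Ascl2, Mmp7 and Krt8 were higher and Olfm4, Smoc2 and Defa24 lower. The 4 stem markers summed to 17155, 13169 and 25498 normalized counts in the PBS libraries of mice 1, 2 and 3 and to 6947, 13435 and 9743 in their LDL libraries, so mouse 2 was not lower with LDL. The more abundant Olfm4 and Smoc2 had lower means with LDL (-1.17 and -0.79 on the log2 scale), whereas Ascl2 and Lgr5 had higher ones (1.22 and 0.40). Among markers of cells that crypt organoids should lack, erythroid (such as Hba-a1, Hbb-bs and Slc4a1), stromal (Col1a1, Col1a2, Pdgfra) and endothelial (Cdh5) genes did not pass the filter. Of the genes that did pass in those lists and in the hepatocyte list, Ttr was lower with the block (-2.22) and none was called without it. The part of a shift in cell types in the iron results was not tested.

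As a description, the genes of at least 100 normalized counts whose values ran most alike with each of the 7 were looked up by Pearson's r over the 6 libraries after each mouse's mean was removed. The nearest were Tmem125 for Cybrd1, Erp29 for Slc40a1, Mex3c for Heph, Haus7 for Slc11a2, Sf3b4 for Tfrc, Jun for Fth1 and Pdcd5-ps for Ftl1. The removal leaves only 3 differences, 1 a mouse, and 11939 genes were searched, so r was above 0.999 for the nearest gene of all 7, including Ftl1, whose difference was close to 0.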

How the data were processed

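Total RNA of 6 organoid libraries, 3 mice by 2 treatments, was depleted of ribosomal RNA, prepared as stranded libraries and sequenced. Per the submitters' processing notes, reads were demultiplexed with bcl2fastq 2.20, aligned to GRCm39 with STAR, counted with featureCounts and normalized with DESeq2. The deposited signal is thus a read count per gene divided by a size factor. Every value came out as a whole number of reads within 0.02 reads (100% of values), and the recovered reads served the count tests. Of the gene identifiers 54749 matched GENCODE M39 and 667 did not. The genes and lists described were chosen with earlier results of these data known.

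Values were tested as log2(normalized count + 1) with limma 3.58.1 (R 4.3.3, trend), over the genes whose mean reached 10, without a block. The calls used adjusted p under 0.05 and 1.5-fold. Alternatives were the mouse as a block, other pseudocounts, filters and scalings, each library left out, mouse 3 left out, edgeR 4.0.16 and DESeq2 1.42.0. The replicate numbers pair libraries of 1 animal, from the shared animal identifier, and deviations from the group means correlated within mice (r = 0.484, 0.421 and 0.462) and not between them. Copies were found with blastn 2.17.0 (90% identity over 300 bases). Named genes were the 7, every called gene of the iron list with or without the block, 8 fixed regulators and chaperones, the 2 most abundant of each other role, and the called and most abundant markers, except that the values of 1 listed iron gene are not reported here. Further hypoxia and marker genes, and Steap1, Steap3, Hamp, Hephl1, Alas1, Hfe, Bmp6, Arnt, Egln1, Egln2 and Trf, were named after their values were seen. The p-values over 3 mice measure the spread between these organoid cultures.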

Additional observations from a re-analysis of the deposited data

How the results depend on the processing

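Across the alternatives Cybrd1, Slc40a1, Heph, Tfrc and Fth1 kept a positive log2 fold change, Cybrd1 between 1.92 and 2.59 and Slc40a1 between 1.78 and 2.19. Their counts of calls depended on the treatment of the mice. With the replicate block 1048 genes were called higher and 639 lower in place of 162 and 73. It added Heph among the 7 genes and changed no other of their calls. The count was 1171 and 588 by edgeR with the replicate block, 846 and 348 by DESeq2, 981 and 511 by DESeq2 with the block, and 506 and 245 with no filter on low values. edgeR without the block gave 186 and 70, and called the same 2 of the 7 genes, while DESeq2 without it added Heph.

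With both libraries of replicate 3 left out limma called 0 genes in either direction (764 higher and 508 lower at an unadjusted p under 0.05), hence 0 of the 7 and 0 of the iron list. With the block, a fit chosen after the data were seen, 265 and 77 were called, including 2 of the 7. Leaving out 1 library at a time gave 18 to 1179 genes higher (18 without LDL replicate 3, 1179 without LDL replicate 2) and 2 to 1133 lower. It gave 0 to 3 of the 7 higher, and 0 to 2 of the iron list higher and 0 to 2 lower. The lone count of the iron list lower was also 0 with a mean of at least 50, where Slc39a8 had an adjusted p of 0.0535. Leaving out 1 library moved the log2 fold change of Slc11a2 between -0.25 and 0.71 and that of Ftl1 between -0.073 and 0.26, with signs turned without LDL replicate 2 for both, and for Ftl1 without LDL replicate 3 (-0.02) or PBS replicate 1 (-0.066). The causes were not tested. In groups of 3 a single library carries much of the spread, and Slc40a1 rested on as few as 71 reads.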
